A study of Mus musculus with 6 samples.

Results

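C4bp, which encodes the C4b-binding protein, and 8 further genes of the complement system were followed in mouse islets labelled as a beta cell specific knockout of Tead1. The 9 genes are the regulators C4bp, Serping1, Cd55 and Cd59a and the components C3, Cfb, C1qa, C1qb and C1qc. The set was chosen by measured values: C4bp was picked because its rise in the Tead1KO islets was the largest of the 18193 genes compared, and the others were added as its pathway with the results of these arrays known. The differences of these genes between Tead1KO and Flox islets are therefore given as a description, with no test. By exact gene symbol in the platform annotation, 8 of the 9 genes were found, on 13 of 45037 probe sets (groups of short probes that read 1 transcript). No probe set carried the symbol C3 alone, and C3 was not analysed here.

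Islets came from 12-week-old male C57Bl6 mice and were hybridized on 6 Affymetrix arrays. The Flox group, 3 arrays, is labelled as flox mice and served as the control. The Tead1KO group, also 3 arrays, carries that knockout label; Tead1 is the gene of a DNA-binding factor at the end of Hippo signalling. The question is which islet transcripts differ between these groups. The labels name no Cre driver in either group, so an effect of a Cre transgene and one of the Tead1 deletion cannot be told apart. No label ties an array to a single mouse, so the spread between arrays may be technical. All values are log2 signals per probe set, on which a difference of 1 is a doubling. They are of whole islets, in which more cells of a type and more RNA per cell cannot be told apart. Probe sets for bacterial RNAs absent from the samples read 2.87 to 4.70, and this range served as the background.

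Complement is a cascade of plasma proteins that tags and lyses cells. The classical pathway starts when C1q, built of the chains C1qa, C1qb and C1qc, binds a surface and its proteases cleave C4 and C2. The alternative pathway runs through C3 and factor B (Cfb). Regulators hold the cascade back on host cells. C4b-binding protein is made mainly by the liver, captures C4b and serves as a cofactor for its cleavage by factor I, and it is also known to bind islet amyloid polypeptide, which beta cells secrete with insulin. C1q is made mainly by macrophages.

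The hormone transcripts of the islet were present in both groups. Gcg read 14.74 in both, Sst 14.07 in Flox and 14.05 in Tead1KO, and Ppy 14.13 and 14.19. Ins2 read 15.69 in both, but it lies at the top of the range of the arrays (highest value 15.71), where a difference would show little. Slc2a2, the glucose transporter of beta cells, read 13.37, 13.58 and 13.48 in Flox and 12.60, 13.08 and 12.31 in Tead1KO. Every Tead1KO array lay below every Flox array, with a difference of -0.82 (limma adjusted p = 0.194). Of the islet list, 6 of 8 genes were measured, 0 were called and 1 had an unadjusted p under 0.05. The part of beta cell content in the values below was not tested. Exocrine tissue varied within both groups, with Cpa1, an acinar enzyme, at 11.92 to 14.33 in Flox and 12.04 to 14.09 in Tead1KO. The arrays differed in quality. The hybridization controls are transcripts of bacteria and of phage P1 spiked into every sample. They read 10.80 to 12.03 in the Flox arrays and 12.18, 11.02 and 13.31 in Tead1KO replicates 1 to 3. Tead1KO replicate 3 had the highest control signal, the narrowest interquartile range of all probe sets (2.65, against 2.99 to 3.32) and the lowest mean correlation with the other arrays (0.969, against 0.984 to 0.986). Tead1 itself read 6.99 to 7.40 in Flox and 6.72, 7.49 and 5.95 in Tead1KO replicates 1 to 3. The array labelled Tead1KO replicate 2 lay above every Flox array at this probe set. Where this probe set lies with respect to the deleted exons is not stated in the labels, so Tead1 does not check them.

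The region upstream of C4bp is shown first, because C4bp is the gene that differed most and the factor targeted per the labels, Tead1, binds DNA. The gene lies on the reverse strand of chromosome 1. The sequences are those of RefSeq on GRCm38.p6, 5′ to 3′. The longer run ends before the outermost annotated start of the gene, which lies 39 bases before the start used by the promoter table. Capitals mark GTTAAT, a half-site of the palindrome bound by HNF1, a factor of liver and pancreas. In the shorter run, taken around the first bases of the transcript, capitals mark GGAATG, the core of the motif bound by TEAD factors.
C4bp upstream, chr1:130661658-130661868, reverse strand: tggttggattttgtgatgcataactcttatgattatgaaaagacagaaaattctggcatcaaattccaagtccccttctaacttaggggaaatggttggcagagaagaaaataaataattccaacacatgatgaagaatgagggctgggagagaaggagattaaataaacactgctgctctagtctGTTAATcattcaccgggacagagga
C4bp at its start, chr1:130661587-130661616, reverse strand: acttgtgtgggtGGAATGcaaggatcactt

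Counted from the start in the promoter table, GTTAAT began at position -64 and the GGAATG at position 15. On either strand, GGAATG occurred in 14.7% of 32851 RefSeq promoters of 300 bases (250 before the start and 50 after it) and GTTAAT in 7.10%. Promoter entries existed for 6 of the 9 genes. The promoters of Cd59a, C3, C1qb and C1qc held 0 matches to either motif, and that of Cd55 held GTTAAT on the other strand and no GGAATG. The motifs were chosen after the C4bp sequence had been read, and a match is a description, not a binding site.

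C4bp went from background to a clear signal in every Tead1KO array. It read 3.02, 3.42 and 3.55 in Flox replicates 1 to 3 and 8.79, 8.92 and 8.47 in Tead1KO replicates 1 to 3. All Flox arrays lay inside the background range, all Tead1KO arrays lay far above it, and the groups did not overlap. The means were 3.33 ± 0.28 and 8.73 ± 0.23 (SD, n = 3 each), a log2 difference of 5.40 (SE 0.20). Against the highest background value, the Tead1KO arrays were at least 17.0-fold, 18.7-fold and 13.7-fold higher. The difference ranked 1 among all genes and also 1 among all 45037 probe sets. C4bp was read by 1 probe set only, so both ranks rest on the same reading. The C4bp difference lay between 5.24 and 5.53 (log2) when each array was left out in turn, so Tead1KO replicate 3 did not set it. Since its Flox end lies within background, the difference measures the distance to background, and the fold is given only as the bound above.

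**Figure D1:**
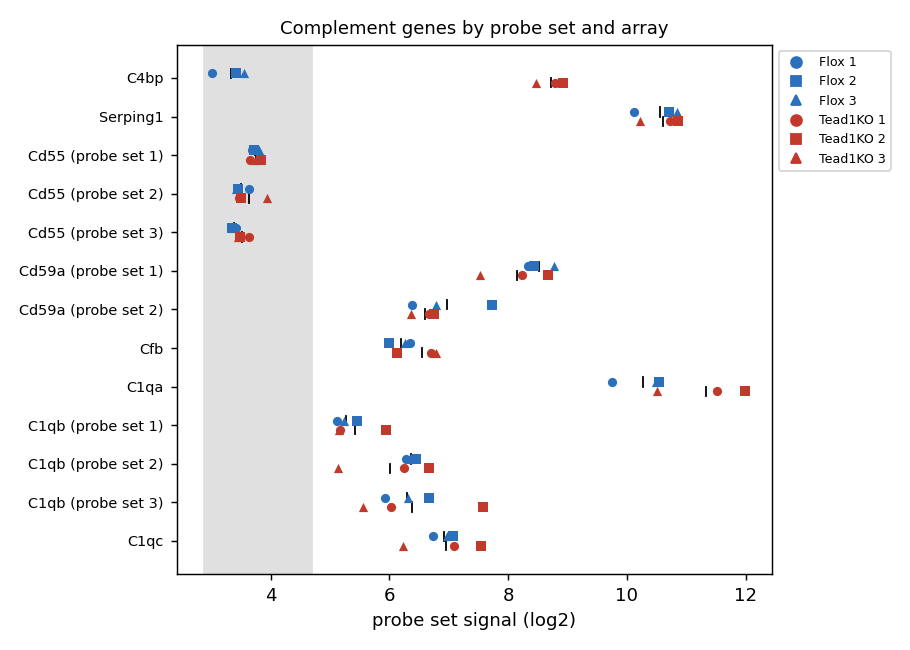
Probe set signal (log2, x axis) of the 13 probe sets of 8 complement genes; points are arrays, Flox in blue and Tead1KO in red, with a symbol for each replicate, black ticks mark the mean of each group, and grey shading covers the background of 2.87 to 4.70. C4bp goes from the shaded range to between 8.47 and 8.92 in Tead1KO, the 3 Cd55 probe sets stay in it, and the groups of the other genes overlap.

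The genes next to C4bp did not share its difference. C4bp sits in a cluster of complement regulators with Cd55, which encodes the decay-accelerating factor, its copy Cd55b and the pseudogene C4bp-ps1. Of the 5 nearest measured genes on each side, taken in RefSeq gene order and chosen as a set after the data were seen, the differences ran from -0.27 to 0.20. Without Cd55, a member of the set chosen by measured values, 0 of 9 passed limma at an adjusted p under 0.05 (0 at an unadjusted p under 0.05), and the lowest adjusted p over all genes was 0.738. C4bp-ps1, the neighbour most like C4bp in name and origin, read 4.92, 4.97 and 4.99 in Flox and 4.96, 4.88 and 5.11 in Tead1KO, a difference of 0.02 (SE 0.13). Pfkfb2, a glycolysis regulator and the next gene along, read 8.32 ± 0.12 in Flox and 8.05 ± 0.18 in Tead1KO (SD, n = 3 each). Of the 10 neighbours, 5 lay within background in both groups: Cxcr4, Cd55b, Cd55, Zp3r and Fcamr. For those 5 a change could have gone unseen.

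**Figure D2:**
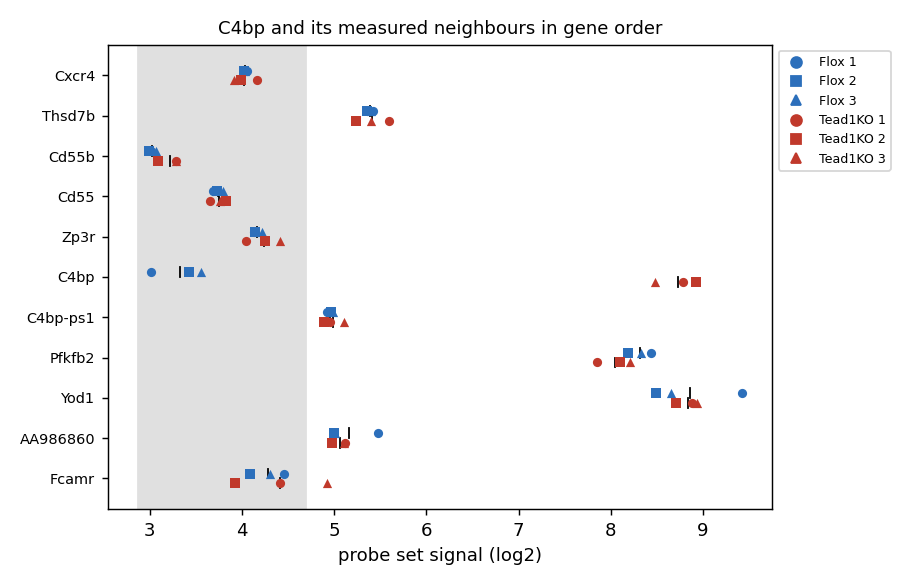
Probe set signal (log2, x axis) of C4bp and the 5 nearest measured genes on each side, in gene order along chromosome 1; points are arrays, Flox in blue and Tead1KO in red, with a symbol for each replicate, black ticks mark the mean of each group, and grey shading covers the background. C4bp has a difference of 5.40, and those of its neighbours lie between -0.27 and 0.20.

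By a likeness rule, the pattern of C4bp over the 6 arrays was closest to that of Crmp1, a protein of axon guidance (Pearson r = 0.997), Kcnc4, a potassium channel (0.997), Penk, the enkephalin precursor (0.994), Timp2, an inhibitor of metalloproteinases (0.994), and Ccbe1, a lymphatic growth protein (0.993). Candidates were the 1122 genes above the median signal, taken over all 6 arrays, with an SD over the arrays of at least 0.5. Of them, 9 had r above 0.99. Kcnc4, Penk and Ccbe1 read 6.32, 5.53 and 5.17 in Flox and passed the median of 6.61 only through their Tead1KO values. The SD bound also favours genes that differ between the groups, so the filter itself built in part of the likeness. These correlations over 6 arrays are a description, since the gap between the groups makes up most of each. Crmp1 read 8.33 to 8.41 in Flox and 10.37 to 10.52 in Tead1KO. Timp2 read 9.36 to 9.44 and 10.61 to 10.77.

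C4bp is a liver gene, and the liver-type transcripts ranged widely in level. Ambp, the precursor of alpha-1-microglobulin, read 8.61 ± 0.25 in Flox and 8.61 ± 0.28 in Tead1KO (SD, n = 3 each). Apoa2, an apolipoprotein, read 7.23 and 6.75. Alb, the albumin gene, read 5.36 ± 0.15 in Flox and 5.41 ± 0.29 in Tead1KO (SD, n = 3 each). Of 12 measured genes of 13 on the liver-type list, 3 (Fga, Fgg and Hp) lay within background in both groups, 0 passed limma over all genes (1 had an unadjusted p under 0.05), and the median difference was 0.06. The exception in size was Apoa1, an apolipoprotein of liver and gut, which read 5.99, 6.80 and 5.53 in Flox replicates 1 to 3 and 11.30, 9.13 and 5.96 in Tead1KO replicates 1 to 3 (adjusted p = 0.664). The summed signal of the list on the linear scale followed it, from 812 to 1039 in Flox and from 753 to 3343 in Tead1KO. In Tead1KO replicate 3, Apoa1 was within its Flox range while C4bp read 8.47.

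The other 3 regulators lay near their Flox levels or below detection. Serping1 encodes the C1 inhibitor, which blocks the proteases of C1. It read 10.12, 10.70 and 10.85 in Flox and 10.72, 10.87 and 10.22 in Tead1KO, with a difference of 0.05 (SE 0.24). The groups overlapped, with 1 low array in each, Flox replicate 1 and Tead1KO replicate 3. Without the former the difference was -0.17, and without the latter it was 0.24, so its sign rests on single arrays. Stromal markers, from cells that also make Serping1, were higher in Tead1KO for 7 of 7 genes (median 0.20, 0 called by limma, 2 with an unadjusted p under 0.05). Their summed signal on the linear scale was 1486 to 1897 in Flox and 1768 to 2783 in Tead1KO, and their part in the Serping1 value was not tested. Cd59a encodes a membrane anchor protein that blocks the membrane attack complex. Its brighter probe set read 8.33, 8.44 and 8.78 in Flox and 8.23, 8.68 and 7.53 in Tead1KO. The lowest value was that of Tead1KO replicate 3, and the group difference was -0.37 (SE 0.29). It was -0.06 without Tead1KO replicate 3 and -0.64 without Tead1KO replicate 2. With the hybridization controls as a covariate it was 0.02. The dimmer Cd59a probe set also differed by -0.37 but with another order of arrays, its highest value being 7.73 in Flox replicate 2. Cd55 lay within background at all 3 probe sets in both groups, with array values from 3.35 to 3.94. At 1 Cd55 probe set the Tead1KO arrays (3.45 to 3.63) all lay above the Flox arrays (3.35 to 3.42), a gap inside the background range.

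Among the components, C1qa had the largest difference, and its partner chains had differences smaller than their spread between arrays. C1qa read 9.75, 10.55 and 10.50 in Flox and 11.52, 11.99 and 10.51 in Tead1KO. Tead1KO replicates 1 and 2 lay above every Flox array, and replicate 3 lay among them. The means were 10.27 ± 0.44 and 11.34 ± 0.76 (SD, n = 3 each), a difference of 1.08 (SE 0.38), with 1.49 when Tead1KO replicate 3 was left out and 0.75 when Tead1KO replicate 2 was.

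C1qc, the C chain, read 6.74, 7.07 and 6.97 in Flox and 7.10, 7.55 and 6.23 in Tead1KO, a difference of 0.03 (SE 0.32). C1qb, the B chain, read 5.93, 6.67 and 6.32 in Flox and 6.03, 7.58 and 5.56 in Tead1KO at its brightest probe set, a difference of 0.08 (SE 0.48). That probe set and another, which differed by -0.34, hold probes that can match several transcripts. The remaining C1qb probe set differed by 0.15. When each array was left out in turn, the difference ran from -0.51 to 0.50 for C1qb and from -0.26 to 0.39 for C1qc, lowest without Tead1KO replicate 2 and highest without Tead1KO replicate 3, so single arrays turned its sign. In all 3 chains Tead1KO replicate 2 was the highest array and, within Tead1KO, replicate 3 was the lowest, the array with the highest hybridization controls. With the hybridization controls as a covariate the differences were 1.64 for C1qa, 0.76 for C1qb and 0.46 for C1qc. The part of array quality in these values was not tested further.

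Taken within each array, the C1qa signal stood apart from that of C1qc in all Tead1KO samples. The C1qa minus C1qc difference (log2) was 3.01, 3.47 and 3.53 in Flox replicates 1 to 3 and 4.42, 4.44 and 4.28 in Tead1KO replicates 1 to 3. The groups did not overlap, Tead1KO replicate 3 included, and the shift between them was 1.05. C1qa minus C1qb ran from 3.83 to 4.18 in Flox and from 4.41 to 5.49 in Tead1KO, whereas C1qb minus C1qc overlapped, from -0.81 to -0.41 and from -1.07 to 0.03. The shift is the quantity of interest, because probe sets of different genes have no common scale. These within-array values were computed after the data were seen. They show unequal change between the probe set signals, not that C1qb or C1qc stayed constant. C1qb and C1qc read nearer the background than C1qa, so unequal change of the transcripts themselves does not follow. C1qa was read by 1 probe set only.

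Macrophage markers, a list of 12 with all of them measured, lay at about the same level in both groups. Their median difference was 0.02, 7 were higher and 5 lower, 0 passed limma over all genes and 0 had an unadjusted p under 0.05. Adgre1, a surface marker of mature macrophages, read 6.98 ± 0.06 in Flox and 7.14 ± 0.05 in Tead1KO. Csf1r, the receptor for macrophage growth factor, read 9.52 ± 0.20 and 9.27 ± 0.81 (SD, n = 3 each). Their summed signal on the linear scale ran from 3137 to 4022 in Flox and from 2537 to 4568 in Tead1KO. Within Tead1KO the sum was lowest in replicate 3 and highest in replicate 2, as for the C1q chains. Of the 12 markers, 0 lay within background in both groups. C1qa minus the mean of the macrophage markers was 2.58 to 3.15 in Flox and 3.51 to 4.40 in Tead1KO.

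**Figure D3:**
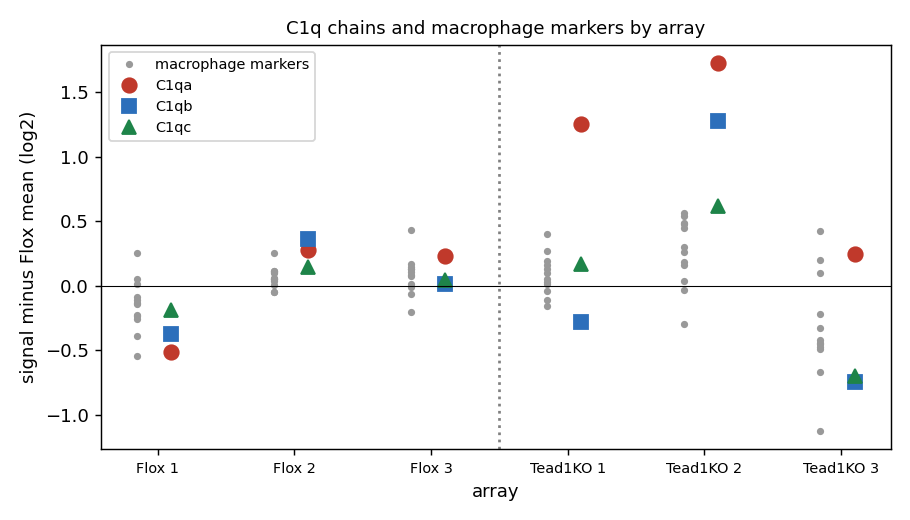
Signal of C1qa, C1qb and C1qc at their brightest probe sets, and of 12 macrophage markers (grey), each minus its Flox mean (log2, y axis), in the 6 arrays (x axis). C1qa lies above C1qb and C1qc in all Tead1KO arrays, and in Tead1KO replicate 3 both partner chains lie below their Flox means.

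Cfb encodes factor B, the protease subunit of the alternative pathway. It read 6.35, 5.999 and 6.26 in Flox and 6.71, 6.13 and 6.79 in Tead1KO, a difference of 0.34 (SE 0.22). Tead1KO replicates 1 and 3 lay above every Flox array and replicate 2 among them. The hybridization controls were likewise higher in Tead1KO replicates 1 and 3 than in any Flox array, and with them as a covariate the difference was 0.12. It was 0.22 without Tead1KO replicate 3 and 0.55 without Tead1KO replicate 2. Their part in the difference was not tested.

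Set side by side, the regulators had a median difference of 0.03 over 4 genes, or 0.01 over 3 without C4bp, and the components had 0.21 over 4 measured of 5, where the median of all genes was -0.01. The 0.01 is the value of Cd55, which lay within background in both groups, and Cd55 also enters the 0.03. Serping1 and Cd59a, which lay above background, differed by 0.05 and -0.37. Relative to their Flox means, the 3 regulators other than C4bp lay on average at -0.07, 0.19 and -0.43 in Tead1KO replicates 1 to 3, and at -0.22, 0.02 and 0.20 in the Flox arrays. The components lay at 0.41, 0.89 and -0.15 in Tead1KO replicates 1 to 3 and at -0.23, 0.15 and 0.09 in the Flox arrays. Both classes overlapped between the groups once C4bp was set aside, and C1qa had the largest of the component differences.

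In limma over all 18193 genes, 0.517% were called at an adjusted p under 0.05, and of the 8 measured members 1, C4bp, was among them. With the hybridization controls as a covariate 2 were, C4bp and C1qa, where 1.36% of all genes were called. Arrays of the groups did not overlap for 13.1% of genes, and for 1 of the 8. At the level of probe sets the background was 10.5%, against 2 of 13, those of C4bp and of Cd55 within background. Nothing is read from these counts, since C4bp was picked for its difference.

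The rest of the complement system was not used to choose the members and was tested. This list too was drawn up with earlier results of these data known. It holds 45 further genes listed by role, of which 36 had a probe set of their own. Of these 36, 0 passed limma at an adjusted p under 0.05 over all genes, and 2 had an unadjusted p under 0.05. The median difference was 0.08, 21 were higher and 15 lower, and the arrays did not overlap for 5 genes, 13.9%, near the 13.1% of all genes. Within background in both groups were 8 of the 36: Mbl1, Mbl2, Colec10, C8a, Cd55b, Csmd1, Itgam and Vsig4.

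The 2 genes with the smallest p belong to the terminal pathway, and both encode chains of C8, a part of the membrane attack complex, with opposite signs. C8g, the gamma chain, read 6.93, 7.50 and 7.24 in Flox and 6.31, 6.51 and 5.78 in Tead1KO. Every Tead1KO array lay below every Flox array, with a difference of -1.03 (SE 0.24, limma unadjusted p = 0.00254, adjusted p = 0.187). C8b, the beta chain, read 9.90, 9.78 and 9.87 in Flox and 10.39, 10.15 and 10.61 in Tead1KO. Every Tead1KO array lay above every Flox array, with a difference of 0.53 (SE 0.16, limma unadjusted p = 0.0108, adjusted p = 0.369). Neither passed over all genes under any alternative tried, and the closest was the omission of Tead1KO replicate 2, with adjusted p = 0.0594 for C8g and 0.0762 for C8b. The alpha chain C8a was within background in both groups. Of the other terminal genes, Hc, which encodes C5, differed by 0.35 (adjusted p = 0.744) and C9 by 0.14.

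In the remaining classes the differences were small. The 3 further classical components measured, C1ra, C1s1 and C2, differed by -0.03, -0.01 and -0.31. For C2, the dimmer probe sets differed by 0.09 and -0.31, so its direction depends on the probe set. The 8 lectin pathway genes lay between -0.29 and 0.12, with Masp1, a protease of that pathway, at 0.10. Properdin (Cfp), which stabilises the alternative convertase, differed by -0.11. Its dimmer probe set, near background at 4.57 in Flox and 4.78 in Tead1KO, differed by 0.21. Of 10 further regulators, 5 were higher and 5 lower. Clu, the gene of clusterin, read 12.56 in Flox and 12.46 in Tead1KO, and Cr1l, the rodent membrane regulator Crry, differed by -0.08 (SE 0.13). Cd46, another cofactor of factor I, differed by 0.26 (SE 0.28), and Cfi, factor I itself, by 0.11 (SE 0.24). Dimmer probe sets of Clu differed by -0.01, -0.40 and -0.81, and the last of these ran from 7.59 to 10.49 in Tead1KO.

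Of the 8 receptors measured, 7 were higher and 1 lower, with a median of 0.15, and 0 passed. C3ar1, the receptor for C3a, differed by 0.23 (SE 0.14, limma adjusted p = 0.767). Itgam, a subunit of complement receptor 3, differed by 0.32 within background. The lower gene was Cd93, a membrane protein of endothelium and myeloid cells once named as a C1q receptor, which read 8.35 ± 0.14 in Flox and 8.08 ± 0.18 in Tead1KO (SD, n = 3 each, adjusted p = 0.767). Its dimmer probe sets differed by 0.23, 0.26, 0.08 and -0.08, and with the probe sets averaged the difference was 0.04, so its direction depends on the probe set.

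**Figure D4:**
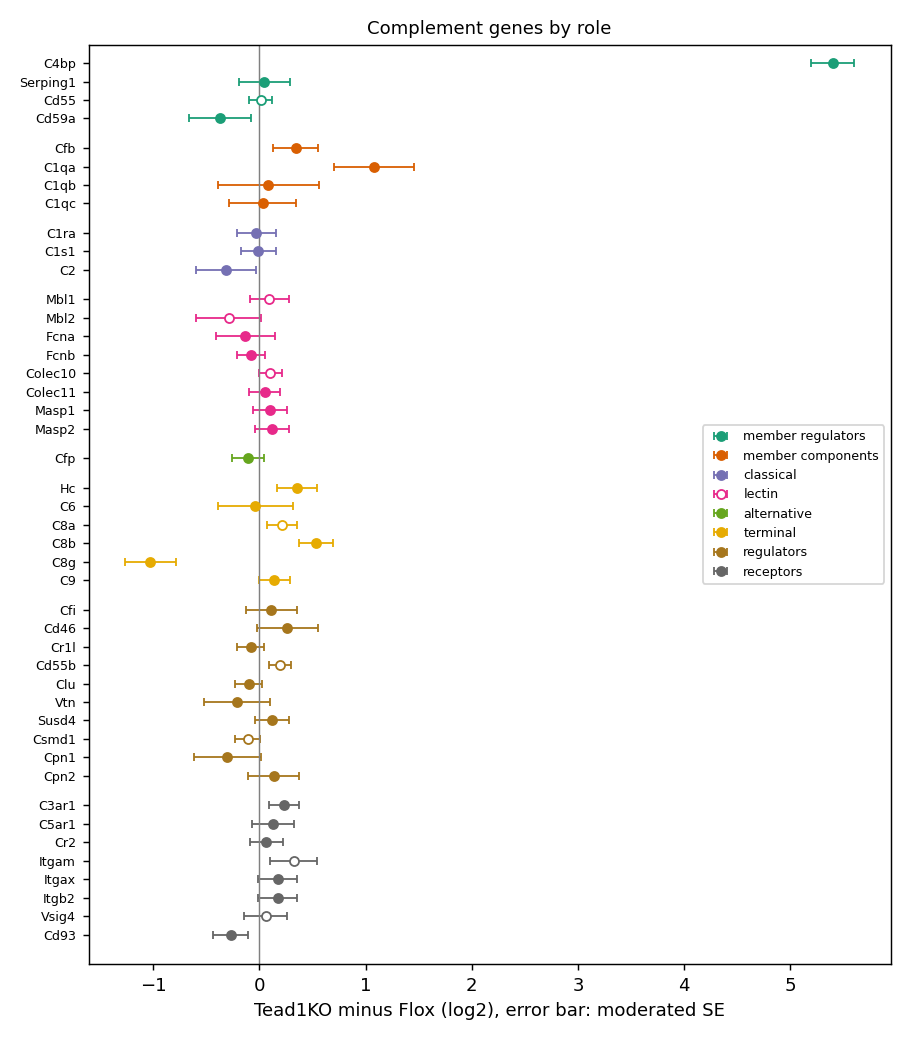
Difference between Tead1KO and Flox (log2, x axis) for 8 members and 36 further complement genes, grouped and coloured by role; points are group mean differences (3 arrays each), bars are moderated SE and open points lie within background in both groups. C4bp lies at 5.40, and all others lie between -1.03 and 1.08.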

How the data were processed

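The authors deposited 1 log2 signal per probe set and array. The submitters' processing notes name Affymetrix Expression Console. The program's version, normalization and summarisation are not stated in the labels. That the scale is log2 follows from the range (2.75 to 15.71). Of 45101 probe sets, 64 controls were left out. Of the rest, 34945 carried 1 gene symbol, 932 several and 9160 none. The probe set with the highest mean stood for each of 18193 genes. Groups were compared with limma 3.58.1 in R 4.3.3 (lmFit, eBayes with trend, no covariate, no filter on dim signals), with Benjamini-Hochberg adjustment over all genes and a threshold of 0.05. Each SE is limma's moderated one, from the fit over genes. The procedure was tested on simulated data.

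The members and lists were chosen with earlier results of these data known. Named genes were all members, the further complement genes with the 8 smallest p and the brightest per class, the 5 genes closest to C4bp, the first 2 markers of lists used, and Tead1. Others (C4bp neighbours, further complement regulators, dim genes) were named after their values were seen. Marker lists for stromal, endothelial, acinar, duct and islet cells had 0 called genes each. Their median differences were 0.20, 0.07, -0.20, -0.18 and -0.0017. For arrays, their number limits the precision.

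Same-numbered arrays deviated from their group means with correlations of 0.06, 0.30 and -0.17 over all genes. Between differently numbered arrays these correlations ran from -0.39 to 0.33. Relative to their Flox means, the acinar markers lay at -1.45, 0.57 and 0.88 in Flox replicates 1 to 3. In Tead1KO replicates 1 to 3 they lay at -1.27, 0.76 and -0.04. These values do not settle whether the replicate numbers pair the arrays. Alternatives were a filter on dim probe sets, quantile normalization, median centring, averaged probe sets, no _x_at or _s_at probe sets, the replicate block, the hybridization controls as a covariate, no variance trend, and each array left out.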

Additional observations from a re-analysis of the deposited data

How the results depend on the processing

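The C4bp difference lay between 5.24 and 5.62 in all 13 alternatives to its fit, and 0 further complement genes were called in any of 14. C4bp has 1 probe set, so averaging probe sets or leaving out _x_at and _s_at ones could not change its difference. Neither could the filter on dim probe sets or, with 3 arrays in each group, the replicate block. The Flox end of C4bp lies within background, so the range above describes the distance to background. The lower bound per array is 13.7- to 18.7-fold. With the replicate number as a block, 0 further complement genes were called, so the block changed no call among these genes. The median of the components moved from 0.21 to 0.61 with the hybridization controls as a covariate, and lay between 0.14 and 0.45 when each array was left out. That of the regulators lay between -0.09 and 0.12 when each array was left out. The median of all genes moved to -0.07 with median centring, which put Serping1 at -0.02 and the regulators' median at -0.03. The number of genes called over the whole array, 94, was 151 with quantile normalization, 58 with median centring and 247 with the hybridization controls. It was 12 to 303 when each array was left out, lowest without Tead1KO replicate 1. With the hybridization controls 2 of the 8 members, C4bp and C1qa, were called in place of 1. Nothing is read from these member calls, since the members were chosen by measured values. Cd55, Cd55b and the other genes within background cannot show a fall, and 3 arrays per group limit what can be called.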
